A study of Setaria viridis with 23 samples.

Results

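The net change of transcript levels over the branching phase of the green foxtail (Setaria viridis) inflorescence was measured by setting 14 days after sowing (DAS) against 10 DAS. The libraries were chosen by their stage label alone: 4 libraries of 14 DAS and 4 of 10 DAS, which are 8 of the 23 RNA-seq libraries of the series. Of the 35214 genes in the count table, 21180 had enough counts to be tested. The 3 libraries of 12 DAS, numbered 1, 2 and 4, were used to place each change between the ends, as gradual, early or late.

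The series follows inflorescence primordia of accession A10.1, a line of this small C4 panicoid grass, from the end of the vegetative phase to floral organ formation. No mutant or treatment is named for any group: all plants were grown in 1 controlled chamber regime, and the group labels differ by age only. Primordia at 10 DAS had just formed an inflorescence meristem, those at 12 DAS bore the first orders of branches, and those at 14 DAS were in higher-order branching. Each library is a pool of primordia dissected by hand, so standard errors and tests below measure the spread between pools, and what each primordium contributed cannot be seen.

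In a grass panicle the inflorescence meristem gives rise to branch meristems, each at the boundary of a suppressed bract, and these in turn form further branches before they become spikelet meristems. In rice and maize, genes related to TERMINAL FLOWER1 and to TAWAWA1 keep meristems from passing on to the spikelet state, whereas boundary genes, auxin genes and the RAMOSA genes set where a meristem forms and how long it goes on branching. MADS-box genes of the APETALA1 and SEPALLATA clades accompany the passage to spikelets and flowers.

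The libraries held 15620838 to 24467483 counts at 10 DAS, 13248903 to 19048285 at 12 DAS and 16026193 to 19244164 at 14 DAS. All 3 stages came from the paired-end run, so the comparison does not cross sequencing runs. No replicate pair of a stage was a copy: the counts of the most similar pair differed by a chi-square of 5.67 per degree of freedom, and those of the least similar pair, 10 DAS replicates 1 and 4, by 30.31. Levels below are CPM, that is counts scaled to 1 common library size after TMM normalization (a correction for differences in library composition). They are not divided by transcript length, so they compare stages and not genes. A gene is said to have risen or fallen when the quasi-likelihood test of edgeR gave it a p under 0.05 after adjustment by Benjamini and Hochberg's method, with all 21180 genes in the adjustment, and errors of log2 fold changes are standard errors.

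Over the 4 days, 8924 genes changed, which is 42.1% of those tested. The directions were close to even, with 4379 genes higher at 14 DAS (20.7%) and 4545 lower (21.5%), and the median log2 fold change over all genes was 0.01. Scaling by library size alone turned that order, with 4567 higher and 4335 lower. A fit of the 8 compared libraries alone gave a plain excess of falls, with 3443 higher and 4576 lower. Testing every gene with at least 1 count gave 4171 higher and 4769 lower, so the near balance depends on the fit. The larger changes were uneven: of the 2876 genes past 2-fold (13.6% of those tested), 977 were higher at 14 DAS (4.61%) and 1899 were lower (8.97%). The excess of falls held at 4-fold, with 378 genes higher and 556 lower, and at 8-fold, with 140 higher and 188 lower, but past 32-fold the counts were 21 and 19. The 14 DAS and 10 DAS libraries did not overlap at all for 7441 genes (35.1% of those tested), and these included 6697 (75.0%) of the genes that changed and 2544 (88.5%) of those past 2-fold. In such bulk samples fewer cells of a type and less RNA per cell cannot be told apart.

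The genes with a known part in inflorescence development were read in role groups that follow the study's expression groups. Of 53 tested developmental genes, 42 changed (79.2%, beside 42.1% of all genes tested), 32 higher and 10 lower at 14 DAS, and 28 of the rises and 7 of the falls passed 2-fold. All 9 tested genes of floral transition and inflorescence meristem identity, of 10 listed, fell. All 16 genes of axillary meristem determinacy and meristem size rose, and 10 of 14 genes of branch initiation and boundaries rose. Of 14 floral organ genes 6 rose and 1 fell. These genes were listed with earlier results of the same libraries known. The study formed its groups mostly by clustering expression over the stages of these libraries, so direction partly defined membership. The directions and the excess over 42.1% are therefore a description of these data and no result about role.

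**Figure D1:**
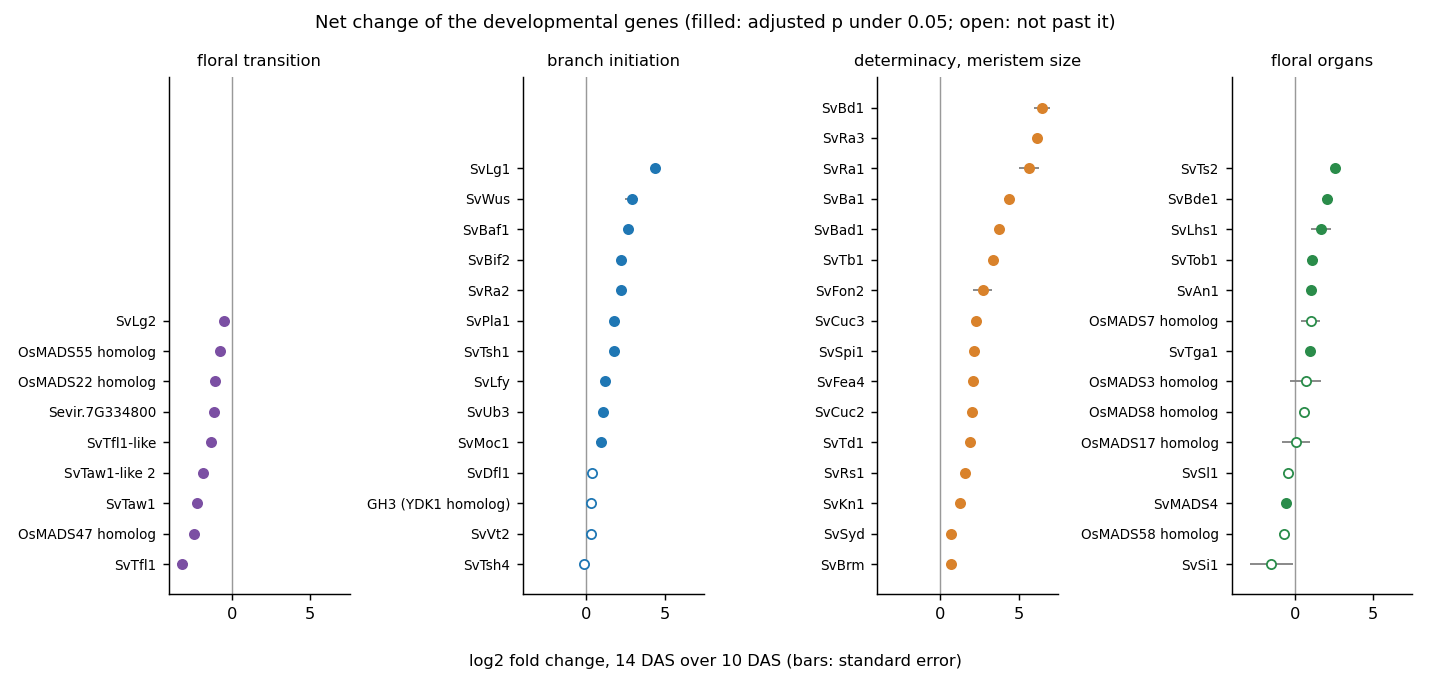
Log2 fold change of 14 DAS over 10 DAS (x axis) for each tested developmental gene, 1 panel per group, with bars of 1 standard error, filled points for adjusted p under 0.05 and open points otherwise. The floral transition genes all lie at or below -0.49 and the determinacy and meristem size genes at or above 0.67, where the value of SvRa1, with 1 count at 10 DAS, is a fitted one and no bound.

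The 9 falling genes of the first group had a median log2 fold change of -1.30, against 0.01 over all genes. SvTfl1, the counterpart of the TERMINAL FLOWER1 floral repressor, had 1.23, 1.44, 1.86 and 1.76 CPM in the 14 DAS libraries, against 10.1, 14.1, 12.4 and 19.0 CPM in the 10 DAS libraries. The groups lay far apart, and the log2 fold change was -3.14 ± 0.35 (adjusted p = 2.58e-07). SvTaw1, a homolog of the rice ALOG-family gene TAWAWA1, had 30.6, 25.6, 28.6 and 16.6 CPM at 14 DAS, against 167, 111, 90.4 and 96.0 CPM at 10 DAS, again with no overlap (-2.20 ± 0.24 on the log2 scale). The OsMADS47 homolog, of the SVP-like MADS clade whose members repress flowering, fell by 2.37 on the log2 scale and the OsMADS22 homolog of the same clade fell by 1.05. The weakest member was SvLg2, a bZIP factor named after maize liguleless2, with a log2 fold change of -0.49 (adjusted p = 0.0193). Its libraries overlapped, and its call was lost without 10 DAS replicate 3 (adjusted p = 0.0712) or 14 DAS replicate 2 (adjusted p = 0.0502).

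Most of the falls in this group lay after 12 DAS in value, but the test of timing called 1 of them. The position of a change is the share of the log2 change completed by 12 DAS, so that 0 is the 10 DAS level and 1 the 14 DAS level, and the median position of the 9 genes was 0.30, against 0.58 over all 8924 genes that changed. SvTfl1-like, a second TERMINAL FLOWER1 homolog, departed furthest: it had 39.2, 49.0, 28.2 and 55.6 CPM at 10 DAS, then 68.8, 54.3 and 60.6 CPM at 12 DAS, and 20.2, 18.8, 18.7 and 12.1 CPM at 14 DAS. All of its fall thus lay after 12 DAS (position -0.39), and its 12 DAS mean stood 1.16 ± 0.18 above the midpoint of its 10 and 14 DAS levels on the log2 scale (adjusted p = 0.000869). The OsMADS22 homolog, at 286, 252, 289 and 300 CPM at 10 DAS, 256, 246 and 227 CPM at 12 DAS and 156, 128, 138 and 121 CPM at 14 DAS, had also done little of its fall by 12 DAS (position 0.20). Its departure from the midpoint did not pass the test (adjusted p = 0.153), nor did that of the OsMADS55 homolog (position -0.09, adjusted p = 0.117). SvTfl1 itself was near the middle, at position 0.52. Sevir.7G334800, a close paralog of SvTfl1, fell by 1.10 on the log2 scale, and SvTaw1-like 2 fell by 1.79.

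ALOG genes code for plant-specific nuclear proteins, of which TAWAWA1 is the one known for panicle branching in rice. Of the 4 tested here, SvTaw1 and SvTaw1-like 2 included, 3 fell (75.0%, beside 21.5% of all genes tested) and the median log2 fold change was -1.63. The third to fall, Sevir.1G074600, fell by 1.46 on the log2 scale, and the fourth, Sevir.2G033100, had a log2 fold change of -0.42 (adjusted p = 0.118). The study placed SvTaw1 and other ALOG genes in its expression group that was highest at 10 DAS in these same libraries. SvTaw1 and SvTaw1-like 2 were also counted above with the floral transition genes. The share that fell is thus a description and no independent evidence about the family. A gene annotated as FT-like, of the family of the flowering signal made in leaves, had 0 counts in all libraries of 10, 12 and 14 DAS and was not tested.

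Of the 14 branch initiation and boundary genes 10 rose and none fell. The median log2 fold change of the group was 1.48, and the 10 risen members had a median position of 0.88. By the midpoint test 5 of them were early, beside 109 of the 4379 genes that rose and 0.619% of all genes tested. The study drew most of this group from genes that tended to be highest at 12 and 14 DAS in these libraries. An early position was thus partly selected for and is no independent evidence of timing. SvLg1, an SBP-box factor that marks the blade-sheath boundary in maize leaves and the base of tassel branches, had 68.7, 95.9, 67.5 and 59.0 CPM at 14 DAS, against 2.44, 3.46, 2.67 and 5.60 CPM at 10 DAS. Its lowest 14 DAS library stood above its highest 10 DAS library by a wide gap, and it rose by 4.40 ± 0.19 on the log2 scale (adjusted p = 6.89e-14). At 12 DAS it already had 42.9, 45.2 and 42.2 CPM, 1.45 ± 0.15 above the log2 midpoint (adjusted p = 2.23e-05), at position 0.83. SvRa2, the homolog of the LOB-domain gene ramosa2 that sets the fate of maize axillary meristems, had 45.6, 58.1, 52.0 and 41.7 CPM at 14 DAS, against 11.7, 15.7, 7.15 and 7.23 CPM at 10 DAS. The groups did not overlap (2.22 ± 0.18 on the log2 scale), and the 12 DAS libraries, at 46.3, 35.5 and 36.2 CPM, put it at position 0.85. Its early call (adjusted p = 0.0131) rested on 12 DAS replicate 1, without which adjusted p was 0.222, and it missed the threshold in a fit of the 11 paired-end libraries alone (0.0566).

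Other members reached or passed their 14 DAS level by 12 DAS. The study named SvTsh1 after the maize bract suppressor tasselsheath1 and described it as a GATA factor, while its annotation is AP2/ERF. SvTsh1 had 4.59, 5.52, 3.45 and 5.60 CPM at 10 DAS, 22.4, 14.8 and 15.6 CPM at 12 DAS and 16.8, 16.4, 17.3 and 14.1 CPM at 14 DAS. It rose by 1.75 ± 0.17 on the log2 scale with all of the rise done by 12 DAS (position 1.07, midpoint adjusted p = 0.000723). SvUb3, the homolog of the maize SBP-box gene unbranched3, is counted by the study among positive regulators of lateral meristem formation. SvUb3 overshot: it rose by 1.08 on the log2 scale over the whole interval and stood at position 1.38 at 12 DAS (midpoint adjusted p = 0.000334).

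A pair of genes showed a passing high at 12 DAS with no net change. SvTsh4, the homolog of the maize SBP-box gene tasselsheath4 that suppresses bracts, had 80.3, 81.3, 53.3 and 68.9 CPM at 10 DAS, 166, 149 and 141 CPM at 12 DAS and 60.8, 69.4, 75.1 and 57.9 CPM at 14 DAS. Its ends overlapped (net log2 fold change -0.11, adjusted p = 0.563), while its 12 DAS mean was 1.15 ± 0.13 above the midpoint (adjusted p = 2.87e-05). SvVt2, the homolog of vanishing tassel2, an aminotransferase of auxin synthesis, had 16.4, 17.6, 14.3 and 15.1 CPM at 10 DAS, 36.4, 26.3 and 27.4 CPM at 12 DAS and 19.0, 22.5, 19.2 and 17.2 CPM at 14 DAS. Its ends also overlapped (net 0.30, adjusted p = 0.133), and its departure of 0.77 from the midpoint (adjusted p = 0.00587) was lost without 12 DAS replicate 1 (0.61, adjusted p = 0.159).

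The remaining members ranged from log2 fold changes of 0.31 to 2.90. SvWus, the homolog of the stem cell gene WUSCHEL, rose by 2.90 ± 0.40 at low levels, with 1.92 to 3.85 CPM at 14 DAS, against 0.121 to 0.552 CPM at 10 DAS. SvBaf1, an AT-hook gene whose maize counterpart is needed for ear initiation, rose by 2.69 and SvBif2, the homolog of the kinase barren inflorescence2 that acts on auxin transport, rose by 2.22. SvBaf1 was called early by a narrow margin (adjusted p = 0.0428), and that call was lost without any one of most libraries (0.49 without 12 DAS replicate 1). SvPla1 (1.75), SvLfy (1.20) and SvMoc1 (0.92) also rose. SvLfy is the LEAFY homolog, SvMoc1 that of the rice tillering gene MONOCULM1, and SvPla1 was named by the study after PLASTOCHRON1 while its annotation calls it a terminal ear1 homolog. Neither SvDfl1, a bZIP gene named after maize delayed flower1 (0.38, adjusted p = 0.179), nor Sevir.9G364900, a GH3 gene of the family that conjugates auxin (0.31, adjusted p = 0.383), passed the net test.

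**Figure D2:**
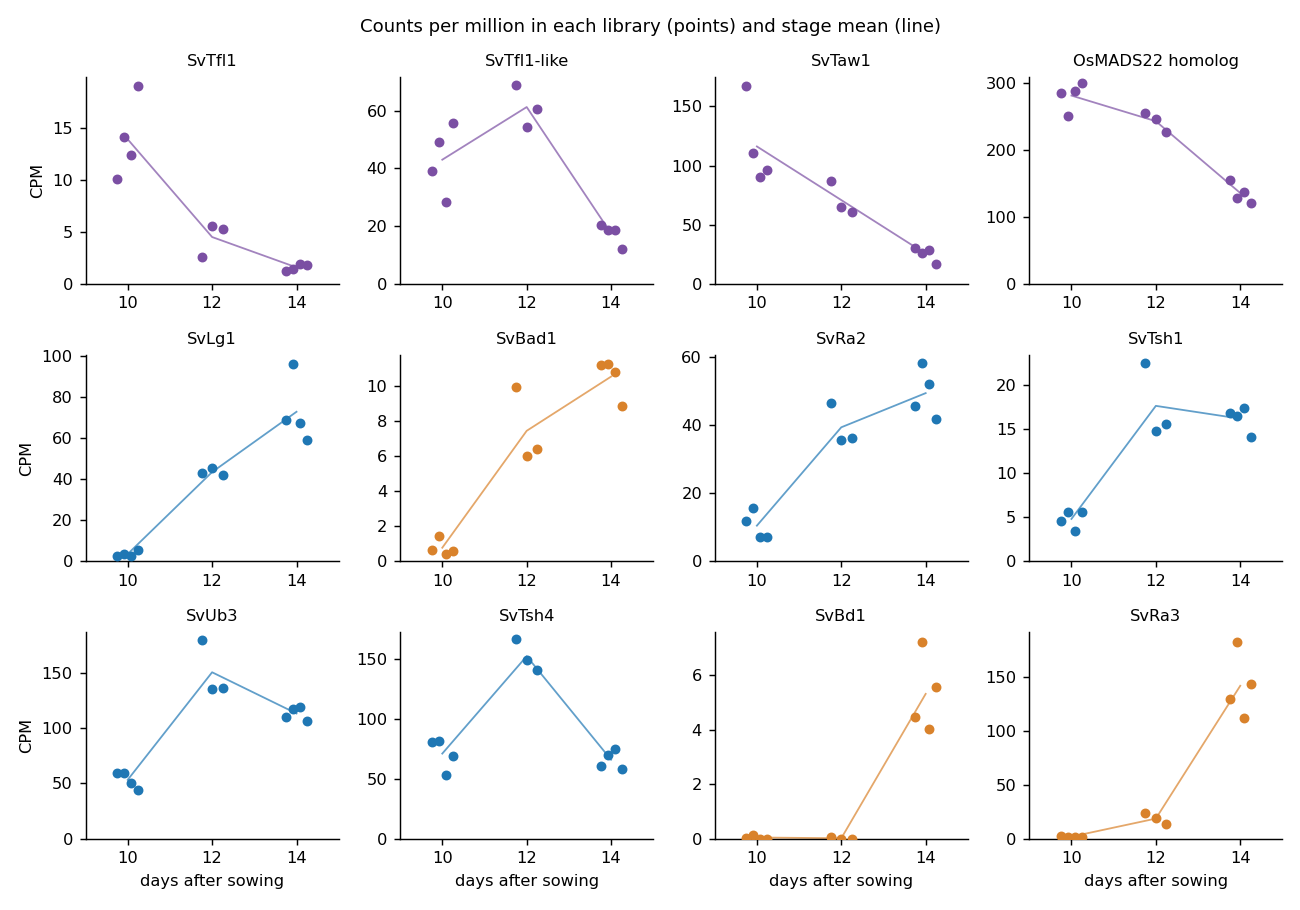
CPM on linear axes that start at 0 (y) against days after sowing (x) for 12 developmental genes, with 1 point per library and a line through the stage means. SvLg1 already stood at 42.2 to 45.2 CPM at 12 DAS, SvTsh4 was highest at 12 DAS, and SvBd1 had at most 0.0563 CPM there.

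All 16 genes of axillary meristem determinacy and meristem size rose, with a median log2 fold change of 2.20 and 14 of them past 2-fold. SvRa3, the homolog of ramosa3, a trehalose phosphate phosphatase that limits branching in maize, had 130, 183, 112 and 143 CPM at 14 DAS, against 2.52, 1.66, 1.70 and 1.98 CPM at 10 DAS. This is a 71.0-fold rise (6.15 ± 0.29 on the log2 scale, adjusted p = 1.52e-13), the libraries of each stage being within a narrow range of each other. Its 12 DAS libraries had 23.7, 19.2 and 13.3 CPM, midway on the log2 scale (position 0.53) but at 0.12 of the way on the linear scale. SvBd1, the homolog of the AP2/ERF gene branched silkless1 that fixes spikelet meristem identity, had 4.46, 7.22, 4.03 and 5.56 CPM at 14 DAS, against 0.0399, 0.151, 0 and 0 CPM at 10 DAS. It rose by 6.46 ± 0.51 (adjusted p = 1.16e-09), and at 12 DAS it was still at 0.0563, 0 and 0 CPM, so that no part of its rise was seen by then. Its midpoint test gave an adjusted p of 0.0812, and 0.0252 by DESeq2.

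SvRa1, the homolog of the C2H2 zinc finger gene ramosa1, appeared in the same way at lower counts. Its 14 DAS libraries held 74 counts in all (1.11, 1.12, 0.807 and 1.14 CPM), against 1 count over the 10 DAS libraries and 0 over the 12 DAS libraries. The ratio of 14 DAS to 10 DAS was 79.5, with an exact 95% interval of 13.8 to 3180 that covers counting error only.

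Axillary branching genes of the TCP and bHLH families rose strongly and early. SvBad1, the homolog of the TCP gene branch angle defective1 expressed in the pulvinus of maize tassels, had 11.2, 11.2, 10.8 and 8.85 CPM at 14 DAS, against 0.639, 1.46, 0.424 and 0.567 CPM at 10 DAS. Its groups were far apart (3.72 ± 0.24 on the log2 scale, adjusted p = 4.81e-11), and at 9.90, 5.99 and 6.41 CPM the 12 DAS libraries lay close to the 14 DAS level (position 0.87, midpoint adjusted p = 0.000443). SvBa1, the homolog of barren stalk1, a bHLH factor needed for axillary meristems in maize, had 19.4, 27.8, 15.0 and 16.6 CPM at 14 DAS, against 0.879, 1.71, 0.666 and 0.496 CPM at 10 DAS, a rise of 4.34 ± 0.28 on the log2 scale. It too was early, with 13.9, 10.7 and 10.7 CPM at 12 DAS (position 0.83, midpoint adjusted p = 0.00116). SvTb1, the homolog of the branching repressor teosinte branched1, had 49.7, 67.5, 56.4 and 51.4 CPM at 14 DAS, against 6.11, 8.09, 3.88 and 3.19 CPM at 10 DAS. The groups did not overlap and it rose by 3.37 ± 0.21, but its early call (adjusted p = 0.0421) was lost under most changes of the library set, with adjusted p = 0.401 without 12 DAS replicate 1.

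The other meristem genes rose with 12 DAS means between the ends. The NAC boundary genes SvCuc3 (2.27) and SvCuc2 (2.04), the auxin synthesis gene SvSpi1 (2.12), the meristem size gene SvFea4 (2.08), which codes for a bZIP factor, and the CLAVATA1-like receptor gene SvTd1 (1.89) had log2 rises near 2. Their positions ran between 0.53 for SvFea4 and 0.83 for SvCuc2, with no call against the midpoint, although SvCuc2 was early in a fit of the 11 paired-end libraries alone (adjusted p = 0.0171) and SvTd1 by DESeq2 (0.0239). The KNOX homeobox genes SvRs1 (1.57) and SvKn1 (1.23), which keep meristem cells undifferentiated, rose less. The smallest rises were those of the SWI/SNF chromatin remodeler genes SvSyd (0.69) and SvBrm (0.67), and the libraries of SvBrm overlapped. SvFon2, a CLAVATA3-like peptide gene, rose by 2.69 on the log2 scale (adjusted p = 0.00131) from a very low base, having 0.372 to 0.695 CPM at 14 DAS, against 0 to 0.182 CPM at 10 DAS.

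Marker levels were read beside these rises. The summed level of 6 meristem markers, all of them also in the developmental groups, was 659 to 869 CPM at 14 DAS (median 724), against 214 to 365 CPM at 10 DAS (median 261), and all 6 rose (median log2 fold change 1.98). The summed level of 8 markers of green leaf tissue was 62.4 to 68.7 CPM at 14 DAS (median 64.9), against 102 to 125 CPM at 10 DAS (median 115). Of the 6 leaf markers tested, 3 fell and none rose (median -0.85), and 1 of the 8 was at 0 in every 14 DAS library. The small subunit of Rubisco, the defining leaf marker, was at 0.0567 to 0.613 CPM in 14 DAS libraries and at 0 to 0.992 CPM in 10 DAS libraries, which overlap. The part of tissue composition in the net changes was not tested.

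The floral organ genes gave the weakest group change, with 7 of 14 called (50.0%, beside 42.1% of all genes tested) and a median log2 fold change of 0.84. SvTs2, the homolog of tasselseed2, a dehydrogenase that aborts pistils in maize, had 7.80, 6.10, 6.45 and 7.89 CPM at 14 DAS, against 0.839, 1.26, 1.45 and 1.28 CPM at 10 DAS, with no overlap (2.57 ± 0.22 on the log2 scale, adjusted p = 5.68e-09). SvBde1, the AGL6-like MADS gene related to maize bearded-ear, rose by 2.09 ± 0.38, and its 12 DAS libraries, at 0.544 to 0.689 CPM, were nearer to the 10 DAS level (position 0.21). SvAn1, the homolog of anther ear1 of gibberellin synthesis, had 8.91, 8.24, 6.70 and 7.94 CPM at 14 DAS, against 4.39, 3.62, 4.12 and 3.05 CPM at 10 DAS. Those groups did not overlap (1.05 ± 0.18), and at 2.98, 4.12 and 2.65 CPM it had not begun to rise by 12 DAS (position -0.24), although its midpoint test fell just short (adjusted p = 0.0508, 0.00955 by DESeq2, and 0.0338 to 0.0449 without 10 DAS replicate 4, 12 DAS replicate 2 or 14 DAS replicate 3). SvTga1 (0.97), an SBP-box gene named after teosinte glume architecture1, also rose.

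Calls on the rest of the floral organ group were less firm. SvLhs1, a SEPALLATA-like MADS gene, had a log2 fold change of 1.67 (adjusted p = 0.0312), which was no longer called on leaving out any one of 5 libraries: 10 DAS replicates 2, 3 or 4 (adjusted p = 0.0866, 0.0731 and 0.0559) or 14 DAS replicates 1 or 2 (0.123 and 0.0599). SvTob1, a YABBY gene, had 1.12 (adjusted p = 0.0127, and 0.0517 without 14 DAS replicate 2). The only fall was that of SvMADS4, a PISTILLATA-like gene of the B class, at -0.54 (adjusted p = 0.0221). Its libraries overlapped, and its call was lost without 10 DAS replicate 1 (0.0541) or 2 (0.0628) or 14 DAS replicate 1 (0.0621) or 4 (0.0521). The 7 genes not called were the B-class SvSi1, the C-class OsMADS3 and OsMADS58 homologs, the OsMADS7, OsMADS8 and OsMADS17 homologs, and SvSl1, a C2H2 gene related to rice STAMENLESS1 (-0.39, adjusted p = 0.177). Without 14 DAS replicate 1 a fall of the OsMADS58 homolog (-1.03, adjusted p = 0.0179) and a rise of the OsMADS8 homolog (0.74, adjusted p = 0.0205) were called. SvSi1 had 0 to 0.114 CPM at 14 DAS, against 0.0399 to 0.242 CPM at 10 DAS.

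With classes set at 1/3 and 2/3 of the log2 change, no single course held most genes. Of the 2876 genes past 2-fold, 1291 (44.9%) were gradual, with the 12 DAS mean at a position of 1/3 to 2/3 of the log2 change, 985 (34.2%) were further on than 2/3 and 331 (11.5%) had come less far than 1/3. A further 198 (6.88%) lay beyond the 14 DAS level and 71 (2.47%) on the far side of the 10 DAS level. With limits of 1/4 and 3/4, 1819 of the 2876 genes (63.2%) were gradual, so whether 1 course held most genes depends on the limits. The median position was 0.64 for the 977 rises and 0.59 for the 1899 falls on the log2 scale. On the linear CPM scale the order turned, with 0.472 for rises and 0.742 for falls, so which direction ran ahead depends on the scale.

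The midpoint test was much stricter than these shares. It called 192 of the 21180 genes (0.907%), and 163 of the 8924 that changed over the interval (1.83%), of which 131 (80.4%) were early and 32 (19.6%) late. Early genes were thus 0.619% and late genes 0.151% of all genes tested. Early calls made up 109 of 132 among genes that rose and 22 of 31 among genes that fell. Past 2-fold, 124 of 2876 genes (4.31%) were off the midpoint, and past 4-fold 84 of 934 (8.99%). The standard error of the departure had a median of 0.29 on the log2 scale for genes past 2-fold, whereas a 2-fold change that was wholly early or late departs by 0.5, so for most such genes an early or late course was not detectable with these libraries. The count of 163 also hung on the 12 DAS libraries: it was 52 without replicate 1, 117 without replicate 2 and 71 without replicate 4.

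**Figure D3:**
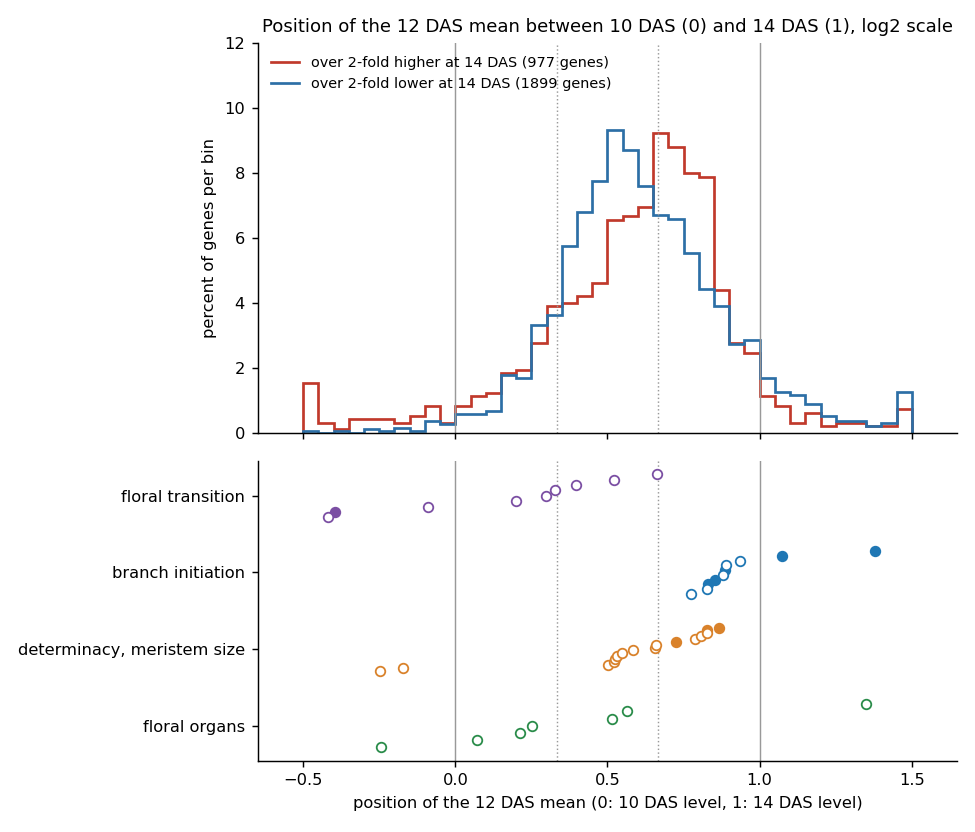
Top, percent of genes per bin (y) by the position of the 12 DAS mean (x, from 0 at the 10 DAS level to 1 at the 14 DAS level, log2 scale) for 977 genes over 2-fold higher and 1899 over 2-fold lower at 14 DAS, where the outermost bins hold everything beyond them and dotted lines mark 1/3 and 2/3. Bottom, the called developmental genes on the same axis by group, with filled points for those off the midpoint; the medians of the top panel are 0.64 for rises and 0.59 for falls.

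The 12 DAS mean lay beyond the 14 DAS level in 54 of the 131 early genes, and on the far side of the 10 DAS level in 28 of the 32 late genes. Among the developmental, family and auxin genes, the smallest midpoint p-values of early genes were those of SvLg1, SvUb3, SvBad1, SvTsh1 and Sevir.2G336100. The last, an SBP-box gene related to rice OsSPL13, had 34.4, 36.2, 26.7 and 21.8 CPM at 10 DAS, 209, 145 and 154 CPM at 12 DAS and 259, 299, 283 and 219 CPM at 14 DAS. It rose by 3.15 ± 0.17 on the log2 scale, most of it by 12 DAS (position 0.80, midpoint adjusted p = 0.000797).

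Of the 32 late genes 5 were members of the transcription factor families. Sevir.7G118500, a C2H2 zinc finger gene of the SUPERMAN type, had 6.95, 5.37, 3.94 and 2.34 CPM at 10 DAS, 4.61, 4.43 and 3.76 CPM at 12 DAS and 20.3, 31.1, 25.5 and 31.2 CPM at 14 DAS. The 12 DAS libraries sat within the 10 DAS range, and the whole rise of 2.49 ± 0.20 came after them (position -0.07, midpoint adjusted p = 0.000856). Sevir.5G352900, an ERF12-like gene, had 1.88, 2.31, 1.21 and 1.28 CPM at 10 DAS, 0.956, 1.01 and 1.06 CPM at 12 DAS and 5.07, 6.58, 5.09 and 5.45 CPM at 14 DAS. It dipped below all 10 DAS libraries before it rose (net 1.70, position -0.44, midpoint adjusted p = 0.000856), as did Sevir.8G036200, an AP2/B3-like gene (net 1.18, position -0.84, midpoint adjusted p = 0.000907). Sevir.2G093800, an AP2-like gene, held 36.7 to 45.2 CPM at 10 DAS and 30.9 to 43.8 CPM at 12 DAS before reaching 13.8 to 16.8 CPM at 14 DAS. Its log2 fold change was -1.35, and its late call (adjusted p = 0.0124) was lost without 12 DAS replicate 1 (0.149) or 4 (0.187).

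Across 9 transcription factor families, 255 of 416 tested members changed (61.3%, beside 42.1% of all genes tested), 115 higher and 140 lower at 14 DAS. The members are those the study listed, and it states that its analyses used genes filtered for change between stages of these libraries. The excess over 42.1% is thus no independent evidence about the families. The SBP-box family, which includes targets of miR156 that mark phase change and branching, moved 1 way, with 11 of 14 members higher, none lower (78.6%, median 0.89) and 5 early calls. MADS-box genes rose more often than they fell, with 15 higher and 7 lower of 29 (75.9%, median 0.79) and 4 early calls. The falls outnumbered the rises in AP2/ERF genes (39 lower and 20 higher of 89, 66.3%, median -0.41), bHLH genes (36 lower and 20 higher of 88, 63.6%, median -0.42) and NAC genes (19 lower and 10 higher of 49, 59.2%, median -0.26). The LOB-domain genes (6 lower and 3 higher of 11, 81.8%, median -0.83) and the TCP genes (8 lower and 4 higher of 18, 66.7%, median -0.34) did likewise. C2H2 genes (18 higher and 16 lower of 65, 52.3%, median 0.01) and bZIP genes (14 higher and 9 lower of 53, 43.4%, median 0.08) were nearer to balance. Of 21 transcription factors that the study singled out as candidates from these same libraries, 12 rose and 5 fell (81.0%), which is no independent evidence of their direction.

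**Figure D4:**
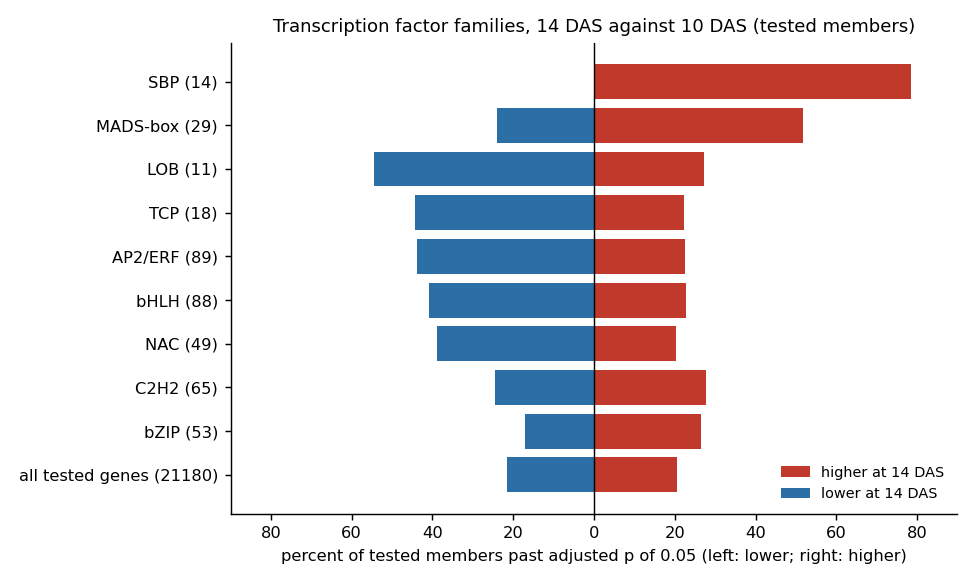
Percent of the tested members of each transcription factor family, and of all genes tested, that were higher (right) or lower (left) at 14 DAS than at 10 DAS, with the number tested in brackets. The SBP-box bar reaches 78.6% on the right and has no left part, while AP2/ERF, bHLH, NAC, LOB and TCP bars are longer on the left.

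The largest fitted rise of all genes tested was that of Sevir.4G060800, a SEPALLATA-like MADS gene related to maize ZMM8 and rice OsMADS5. It had 87.3, 120, 70.9 and 96.5 CPM at 14 DAS, against 0.0399, 0.201, 0 and 0.213 CPM at 10 DAS. The gene was thus close to absent at 10 DAS and present in every 14 DAS library, a change of 9.68 ± 0.31 on the log2 scale (adjusted p = 1.88e-16). The 12 DAS libraries, at 7.20, 4.97 and 6.41 CPM, placed it at 0.60 of the log2 change. Sevir.2G336300, an SBP-box gene related to rice OsSPL13, had 55.2, 60.4, 55.8 and 52.3 CPM at 14 DAS, against 1.68, 0.653, 0.727 and 0.567 CPM at 10 DAS, a rise of 5.84 ± 0.32. It was early at 26.4, 16.6 and 14.1 CPM in the 12 DAS libraries (midpoint adjusted p = 0.00497), though not without 12 DAS replicate 1 (0.133). Sevir.3G023200, an ERF003-like gene, rose by 6.36 ± 0.50, with 4.90 to 6.74 CPM at 14 DAS, against 0 to 0.160 CPM at 10 DAS; its early call (adjusted p = 0.0185) was likewise lost without that library (0.362).

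Other MADS-box genes rose in the same window; these were chosen after their values were seen. The APETALA1-like genes Sevir.2G006400, related to OsMADS15, and Sevir.9G087300, related to OsMADS14, rose by 3.03 and 2.05 on the log2 scale, each of them early (midpoint adjusted p = 0.0106 and 0.00335). Sevir.9G087100, related to OsMADS34, which in rice limits branching and sets spikelet identity, rose by 3.26 (midpoint adjusted p = 0.00141), and Sevir.5G305800, related to OsMADS32, rose by 3.57 (0.0131). The early calls of Sevir.2G006400, Sevir.9G087300 and Sevir.5G305800 were lost without 12 DAS replicate 1 (0.273, 0.120 and 0.304), while that of Sevir.9G087100 was kept. Sevir.9G565200, related to the flowering integrator SOC1, rose by 1.83 with no timing call. Against these, Sevir.3G374400, related to OsMADS20, fell by 2.71.

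Within the TCP family the annotation as teosinte branched1-like went with the rises: SvTb1, SvBad1 and Sevir.6G163100 (1.51) bore it, and the fourth riser, Sevir.7G183600 (0.88), was TCP7-like. The 8 fallers bore other annotations, among them the TCP14-like Sevir.1G325700 (-1.39), the PCF5-like Sevir.5G147800 (-1.34) and the PCF3-like Sevir.8G054200 (-1.22). This division was read after the values were seen.

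The 6 largest falls among family members with no overlap of libraries and a mean of at least 5 CPM at 10 DAS were of bHLH, AP2/ERF, NAC and C2H2 genes. Sevir.7G050400, a bHLH gene, had 0.223, 9.47, 0.496 and 1.76 CPM at 14 DAS, against 51.3, 82.0, 33.1 and 120 CPM at 10 DAS. The groups did not overlap (-4.55 ± 0.69 on the log2 scale), but 14 DAS replicate 2 stood well above the other 14 DAS libraries. The bHLH35-like Sevir.7G050300, whose identifier lies next to it, had 0, 0.963, 0.124 and 0.0567 CPM at 14 DAS, against 10.7, 14.0, 5.51 and 15.8 CPM at 10 DAS, with the same library highest (-5.24 ± 0.79, adjusted p = 1.51e-05). Sevir.7G201100, an AP2/ERF gene of the TINY type, fell by 4.76, Sevir.9G038400, a NAC gene, fell by 4.28, Sevir.6G240200, a bHLH14-like gene, fell by 3.72, and Sevir.9G079000, a C2H2 zinc finger gene, fell by 3.10.

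Auxin genes rose on balance, 17 of 29 higher and 2 lower (65.5% called and a median of 0.54, beside 42.1% called, 20.7% higher and a median of 0.01 over all genes tested). The study drew these genes from expression groups that peak after 10 DAS, formed on these same libraries. Their direction and share of calls are thus a description and no independent evidence. By role, 5 of 6 transport genes rose (83.3%, median 0.81) and 8 of 9 signaling genes rose (88.9%, median 0.86). Of 7 synthesis and metabolism genes 2 rose and none fell (28.6%, median 0.30). That share is below the 42.1% called and above the 20.7% higher over all genes tested. Of 7 response genes 2 rose and 2 fell (57.1%, median -0.05). The efflux carrier gene Sevir.5G249500 rose by 2.28 on the log2 scale. The auxin response factor genes Sevir.8G145300 (1.11), Sevir.4G252900 (1.00) and Sevir.7G115700 (0.96) rose by about the same amount. The count of 19 called genes ran between 14 and 19 on leaving out single libraries, and the weakest calls, such as the falls of the auxin-repressed genes Sevir.5G112300 (adjusted p = 0.0294) and Sevir.6G176400 (0.0492), were lost without 10 DAS replicate 1 (0.0967 and 0.192).

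Among other annotated genes, whose descriptions cover mainly chromosome 1 and the network genes of the study, 6 rises were the largest with no overlap of libraries and a mean of at least 5 CPM at the higher stage. Sevir.5G256600, a protein phosphatase 2C gene, had 35.7, 52.8, 47.4 and 43.2 CPM at 14 DAS, against 1.60, 4.82, 1.21 and 2.27 CPM at 10 DAS. It rose by 4.17 ± 0.28 with no overlap, and its 12 DAS libraries at 33.3, 34.8 and 39.0 CPM had nearly reached the 14 DAS level (position 0.92, midpoint adjusted p = 0.000128). Early rises were also called for Sevir.2G191000, a ubiquitin-60S ribosomal fusion gene (4.10, midpoint adjusted p = 0.00103), and Sevir.3G046000, a HECT-type ubiquitin ligase gene (3.06, 0.00157). Sevir.1G130200, a MATE efflux gene (3.22, 0.00954), was early except without 12 DAS replicate 1 (0.185). A second phosphatase 2C gene, Sevir.3G141300 (3.06), and the PWWP-domain gene Sevir.3G218900 (3.04) rose with no timing call.

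The 6 largest annotated falls under the same conditions were those of Sevir.1G061500, a WRKY40-like gene (-3.56), Sevir.1G284000, a nitrate transporter gene (-3.01), Sevir.1G174600, a glycerophosphodiester phosphodiesterase gene (-2.98), Sevir.1G240300, a GDSL lipase gene (-2.90), Sevir.1G184800, a cell wall invertase gene (-2.86), and Sevir.1G239200, a leucine-rich repeat protein gene (-2.82). For these 6 genes all 14 DAS libraries lay below all 10 DAS libraries. The 12 DAS positions ran from 0.53 for the invertase to 0.96 for the WRKY gene, with no midpoint call.

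Lists of housekeeping and enzyme genes were small and cover chromosome 1 alone, and their counts are to be read beside the 42.1% called and 21.5% lower of all genes tested. Of 10 tested ribosomal protein genes 6 fell and none rose (60.0%, median -0.49), none of them past 2-fold. Among cyclins and kinesins 2 of 7 rose and 1 fell (42.9%, median 0.06), a share at the background. All 3 tested peroxidases fell (median -1.14), 1 cytochrome P450 rose and 1 fell of 4, 1 leucine-rich repeat receptor kinase rose and 2 fell of 9, and 1 of 3 homeodomain genes rose.

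Of genes without an annotation, the 2 rises named under the same conditions were Sevir.2G018500 and Sevir.9G259200. Sevir.2G018500 had 567 counts over the 14 DAS libraries, against 2 over the 10 DAS libraries, a ratio of 304 (exact 95% interval 83.9 to 2520, counting error only), with 2.14, 2.72 and 3.34 CPM at 12 DAS. Sevir.9G259200, whose identifier is next to that of SvPla1, had 10.6, 11.2, 10.6 and 11.2 CPM at 14 DAS, against 0.120, 0.201, 0 and 0 CPM at 10 DAS. It rose by 6.77 ± 0.31 and was early (midpoint adjusted p = 7.89e-05). The 2 falls named likewise were Sevir.2G205200 (-6.28) and Sevir.5G124000 (-5.89), while the largest fitted fall of all genes tested was -8.42.

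The later interval of the series, 18 DAS against 15 DAS, shares no library with these 8 and was read for the same genes. There 9040 of the 21180 genes changed (42.7%), 22.1% higher and 20.6% lower at 18 DAS. Of the 977 genes over 2-fold higher at 14 DAS, 288 (29.5%) were lower and 144 (14.7%) higher at 18 DAS. Of the 1899 genes over 2-fold lower at 14 DAS, 624 (32.9%) were higher and 281 (14.8%) lower at 18 DAS, so that each set moved back more often than on. SvRa3 fell later by 2.33 on the log2 scale and SvLfy by 1.00. Of the 9 floral transition genes 7 went on falling, such as the OsMADS47 homolog (-3.27) and SvTaw1-like 2 (-2.51), and 1 was higher at 18 DAS. Of the 7 floral organ genes called at 14 DAS, 6 were higher at 18 DAS, led by SvMADS4 (2.97). The study formed these developmental groups on all stages, 15 and 18 DAS included, so their later directions are a description. Of the 12 TCP genes called, 8 were higher.

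**Figure D5:**
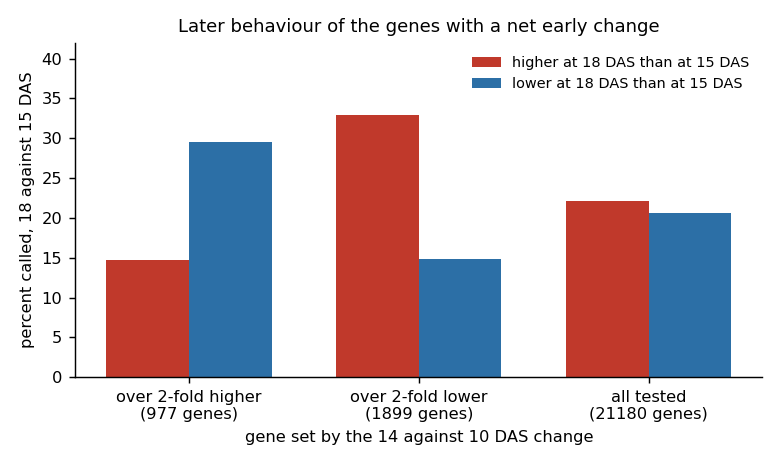
Percent of genes called higher or lower at 18 DAS than at 15 DAS (y), for the genes over 2-fold higher at 14 DAS, those over 2-fold lower, and all genes tested. Of the earlier rises 29.5% were lower and 14.7% higher at 18 DAS, and of the earlier falls 32.9% were higher and 14.8% lower.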

How the data were processed

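The authors dissected inflorescence primordia by hand, pooled them, and sequenced 23 libraries. Per the labels and the study's methods, Salmon 0.8.1 (after FastQC) quantified reads against primary transcripts, with read 1 of the paired-end run used for 10, 12 and 14 DAS, and the deposited table holds expected counts per gene gathered with tximport. Of the deposited estimated counts 8.77% were not whole, and all were rounded. The genome build and annotation behind the gene names were taken as the table gives them, and no sequence was used.

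Counts were fitted in edgeR 4.0.16 (R 4.3.3) with TMM scaling, genes kept by filterByExpr, a quasi-likelihood fit with 1 mean per stage over all 23 libraries, and Benjamini-Hochberg adjustment over 21180 genes. Contrasts were 14 DAS minus 10 DAS, 12 DAS minus the midpoint of both, and 18 DAS minus 15 DAS. Genes called in the first 2 were early or late by the side of the midpoint. The position of 12 DAS is the share of the log2 change completed, and limits of 1/3 and 2/3 set the classes. The tests were run on simulated data in which 200 genes changed, far fewer than were called in these libraries. There the 18 DAS minus 15 DAS contrast was checked for false calls only. The 14 DAS replicates held at least 16026193 counts each, and every number of counts gives a precision that covers sampling of reads only.

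The comparison's libraries and the gene lists (developmental groups, transcription factor families, auxin roles, ALOG, FT-like, chromosome 1 classes, leaf and meristem markers, the study's candidates) were chosen with earlier results of these data known. The text names all tested developmental genes, the 5 clearest early and late genes, and 2 unannotated genes in each direction. It also names the 6 largest rises and falls of the families and of other annotated genes (no overlap of libraries, mean of at least 5 CPM at the higher stage). Descriptions came from the study's supplementary tables, which annotate 2879 genes. Alternatives were DESeq2 1.42.0, library-size scaling, 2 other filters, fewer libraries in the fit, a replicate block, linear means and other class limits.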

Additional observations from a re-analysis of the deposited data

Results flagged for a closer look

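Within 14 DAS and within 10 DAS the named genes were searched for a library far from the other 3. Such a library was found in 16 of 168 groups (84 genes at 2 stages), where chance gives about 1 in 20. Some groups held very few counts, such as 1 for SvRa1 over the 10 DAS libraries. The rate of 1 in 20 does not hold for these, so no excess over chance is claimed. Of the 16, 5 were high values in 14 DAS replicate 2: 30.4 CPM for SvTga1 (others 19.2 to 20.9), 0.963 for Sevir.7G050300 (0 to 0.124), 0.588 for Sevir.7G201100 (0.0621 to 0.114), 9.47 for Sevir.7G050400 (0.223 to 1.76) and 0.856 for Sevir.5G124000 (0.114 to 0.223). In the other 14 DAS libraries they were SvRa1 in replicate 3 at 0.807 CPM (others 1.11 to 1.14), SvSi1 in replicate 4 at 0.113 (0 in the others), the OsMADS17 homolog in replicate 3 at 0 (0.0535 to 0.0567) and the OsMADS7 homolog in replicate 1 at 0.836 (0.170 to 0.214).

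At 10 DAS the distant values were 290 CPM for the OsMADS47 homolog in replicate 3 (others 227 to 236), 0.242 for SvSi1 in replicate 3 (0.0399 to 0.0709), 0.0502 for SvRa1 in replicate 2 and 0.142 for Sevir.2G018500 in replicate 4 (0 in the others of each), 1.68 for Sevir.2G336300 in replicate 1 (0.567 to 0.727), 1.26 for Sevir.1G130200 in replicate 2 (0.496 to 0.559) and 10.3 for Sevir.1G240300 in replicate 1 (5.83 to 6.24). The causes were not tested.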

How the results depend on the processing

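The net change was stable in size: 8924 genes changed in the main analysis, 8019 to 9041 under the other scalings, filters, tools and library sets, and 7532 to 9168 on leaving out single libraries (2686 to 2987 past 2-fold, 3490 to 4627 higher, 3851 to 4617 lower). On leaving out single libraries, called developmental genes numbered 39 to 42, family members 230 to 256, auxin genes 14 to 19, and net-change genes called again at 18 against 15 DAS 3383 to 4315. Timing was less stable. The 163 genes off the midpoint ran from 52 to 212, early genes from 41 to 175 and late genes from 11 to 37, the low ends being without 12 DAS replicate 1 (and, for late genes, also without replicate 4), a fit of fewer samples. Median positions ran from 0.604 to 0.661 for rises and 0.571 to 0.643 for falls. Linear means gave 0.472 for rises and 0.742 for falls, and all called genes gave 0.607 and 0.553. Class limits of 1/4 and 3/4 gave 21.5% early, 63.2% gradual and 5.91% late.

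Direction turned only for 2 low genes without a call, on leaving out single libraries: the OsMADS17 homolog (-0.22 to 0.85) and the OsMADS3 homolog (-0.69 to 1.44); the cause was not tested. Replicate numbers did not pair the samples (same-number correlations of deviations between 10 and 14 DAS of -0.0528 to 0.239), and the replicate block gave 8716 changed genes, 140 off the midpoint, 114 early and 26 late, and called the OsMADS55 homolog late (0.49, adjusted p = 0.0364). Of the 112 named net results, 10 lost and 2 gained a call on leaving out single libraries, and 4 lost one under other settings. Of 35 named midpoint results, 12 lost and 2 gained one on leaving out single libraries, and under other settings 4 lost and 5 gained one. With 3 libraries at 12 DAS, most early or late courses of 2-fold changes were below what the test could detect.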

Other observations

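At 12 DAS, 29 genes stood off the midpoint of their 10 and 14 DAS levels with no net change between those stages, 14 of them above and 15 below it. Beside SvTsh4 and SvVt2 they included Sevir.9G525300, an AP2 gene annotated as AIL5-like, and Sevir.7G274200, annotated as DEAR3. At an unadjusted p under 0.05, 1632 genes (7.71%) stood off the midpoint.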
